A study of Mus musculus with 4 samples.

Results

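Chromosome 12 genes of mouse colon tumour cells were followed across control cells and 3 mutant lines. The set held every row of the count table whose Ensembl identifier lies on chromosome 12 in GENCODE vM21 (genome build GRCm38) and whose counts over the 4 libraries sum to 100 or more. This gave 407 genes, called members here, of 1691 rows on the chromosome and 41457 rows in all. A further 942 rows of the chromosome had no count and 342 had between 1 and 99 counts. The chromosome was chosen by the measured ratios of M8 over control, its genes being known to be lower in M8. Every value that uses the M8 library, over control or over another line, is therefore a description and carries no test. The groups were the control tumour cells (control) and the lines M8, M32 and M83, whose genotype label is ENU mutant. ENU, an alkylating agent, leaves mainly point mutations. All groups were grown in RPMI medium and each gave 1 library of poly(A) RNA. The series' design text speaks of a triplicate and the table has a single column per group, so no difference between groups has a replicate check. The sources used here give neither the name of the parental line, nor whether a mutant line is 1 clone, nor whether control and mutants left the same culture. The library totals lay between 25818148 counts (control) and 28879954 (M8). Against the colon label, the epithelial genes Epcam and Cdx2 had 0 counts in every library and Cdh1 at most 4, while Krt20, an intestinal epithelial keratin gene, had between 1008 and 3667. The mesenchymal filament gene Vim had at least 115473 counts.

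In a cell the output of most genes follows the number of template copies, so a gain or loss of a chromosome is commonly seen as a shift of its genes in the same direction. Single genes can depart from such a shift, for instance when their promoters respond to other signals. Mouse chromosome 12 carries, among others, the cytosolic chaperone gene Hsp90aa1, the kinase gene Akt1 and the hypoxia factor gene Hif1a. It also holds the interferon-inducible neighbours Rsad2 and Cmpk2, the imprinted Dlk1-Meg3 domain, a cluster of Serpina protease inhibitor genes and, near the far end, the immunoglobulin heavy chain locus. Neither DNA copies of the chromosome nor promoter activity was measured here.

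The promoters of 5 members are shown because E2f6, the pair Acot1 and Acot2 and the pair Crip2 and Crip1 were among the members that departed from the chromosome's shift in M8. Each sequence runs from 250 bases before the RefSeq transcription start to 50 bases after it (RefSeq, GRCm38.p6), 5′ to 3′ on the gene's own strand, which is the plus strand for all of them. Capitals mark every CG dinucleotide, which reads the same on both strands. E2f6, Acot1 and Crip2 were very low in M8, while Acot2, the neighbour of Acot1, and Crip1, the neighbour of Crip2, were above control.
E2f6, chr12:16810715-16811014: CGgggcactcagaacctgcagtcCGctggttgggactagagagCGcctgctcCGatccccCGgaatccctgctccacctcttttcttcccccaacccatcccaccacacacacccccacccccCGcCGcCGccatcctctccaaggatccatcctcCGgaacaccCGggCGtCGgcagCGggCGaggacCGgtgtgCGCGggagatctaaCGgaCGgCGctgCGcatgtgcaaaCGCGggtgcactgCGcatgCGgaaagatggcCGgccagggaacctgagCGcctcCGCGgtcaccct
Acot1, chr12:84009252-84009551: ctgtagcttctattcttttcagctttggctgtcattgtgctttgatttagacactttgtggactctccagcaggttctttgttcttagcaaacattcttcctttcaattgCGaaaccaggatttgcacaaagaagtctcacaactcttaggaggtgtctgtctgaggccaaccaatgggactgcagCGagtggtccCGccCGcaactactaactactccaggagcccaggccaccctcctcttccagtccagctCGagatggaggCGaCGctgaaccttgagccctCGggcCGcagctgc
Acot2, chr12:83987611-83987910: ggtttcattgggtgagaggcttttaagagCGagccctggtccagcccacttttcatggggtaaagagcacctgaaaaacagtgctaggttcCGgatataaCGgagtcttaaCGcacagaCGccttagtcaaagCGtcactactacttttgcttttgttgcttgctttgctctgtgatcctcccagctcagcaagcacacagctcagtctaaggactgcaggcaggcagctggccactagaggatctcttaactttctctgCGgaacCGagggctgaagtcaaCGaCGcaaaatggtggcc
Crip2, chr12:113139986-113140285: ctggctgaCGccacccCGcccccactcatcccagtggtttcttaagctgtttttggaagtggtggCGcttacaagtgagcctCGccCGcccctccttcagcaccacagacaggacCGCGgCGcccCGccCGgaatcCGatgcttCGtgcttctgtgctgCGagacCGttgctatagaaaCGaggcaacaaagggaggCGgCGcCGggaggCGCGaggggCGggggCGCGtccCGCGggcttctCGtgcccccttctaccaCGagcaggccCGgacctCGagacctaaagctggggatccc
Crip1, chr12:113151762-113152061: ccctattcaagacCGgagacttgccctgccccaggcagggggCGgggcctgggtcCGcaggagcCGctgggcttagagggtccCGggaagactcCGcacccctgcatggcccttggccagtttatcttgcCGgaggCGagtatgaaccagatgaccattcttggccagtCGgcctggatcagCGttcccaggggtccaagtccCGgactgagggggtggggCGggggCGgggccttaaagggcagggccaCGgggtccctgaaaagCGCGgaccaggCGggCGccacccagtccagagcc
The windows hold 29 CG in E2f6, 9 in Acot1, 10 in Acot2, 29 in Crip2 (the first of 2 listed starts) and 18 in Crip1. The median over all 32851 promoters of the same length was 7 CG (quartiles 3 and 20), and 94.6% held at least 1. RefSeq gave 419 promoters for 339 of the 407 members, with a median of 23 CG (quartiles 13 and 31) and at least 1 in 98.8%. Members were chosen by their counts and the promoters as a whole were not. The medians thus do not compare chromosome 12 with other expressed genes.

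The Rsad2 promoter is shown for Rsad2, Cmpk2, Ifi27 and Ifi27l2a. In a list of interferon and NF-kB genes described below, they were the members furthest below control in M8. Rsad2 encodes viperin, an antiviral enzyme, and lies on the minus strand. Capitals mark the only match to an interferon element of GAAA, any 2 bases and GAAA, searched on both strands and found here on the opposite strand, with 110 bases between it and the start.
Rsad2, chr12:26456403-26456702: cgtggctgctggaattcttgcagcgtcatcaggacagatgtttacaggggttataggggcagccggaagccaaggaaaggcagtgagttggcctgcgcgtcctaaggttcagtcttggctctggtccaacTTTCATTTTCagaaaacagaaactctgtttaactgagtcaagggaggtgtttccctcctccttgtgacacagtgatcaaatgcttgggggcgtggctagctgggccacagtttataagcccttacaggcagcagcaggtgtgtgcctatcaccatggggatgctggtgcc
This element was present in 3.44% of all promoters and in 14 of the 419 member promoters (3.34%). It is not in the letters of the Cmpk2 window. A match is a description of letters, not a measured binding site.

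Most members were lower in M8. A log2 ratio here is the log2 of a library's TMM-normalised CPM (a read count scaled by library size and composition) over that of control, with a prior count of 2 added. The members' median log2 ratio of M8 over control was -0.58, a ratio of 0.669, with quartiles at -0.83 and -0.33. The binomial interval of the median over members was -0.61 to -0.54, which describes these genes and not repeats of the line. In bulk RNA, less RNA per cell and fewer cells with the RNA cannot be told apart. In M32 the median was -0.05 and in M83 0.10. Over all 11419 genes of the table with 100 or more counts the medians were -0.02, -0.05 and -0.04 in M8, M32 and M83.

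Below control in M8 were 366 of the 407 members (89.9%), where 52.0% of all 11419 genes were below. The same count was 234 members (57.5%) in M32, against 55.7% of all genes, and 161 (39.6%) in M83, against 54.5%. For 322 members (79.1%) the exact 95% interval of the M8 ratio, which covers counting error only, lay wholly below 1, against 35.3% of all genes, and for 26 (6.39%) wholly above 1, against 32.6%. In M32 the interval lay wholly below 1 for 144 members (35.4%, against 37.8% of all genes) and wholly above for 106 (26.0%, against 28.0%). In M83 these were 95 (23.3%, against 38.3%) and 173 (42.5%, against 29.8%). M8 was the lowest of the 4 libraries for 330 members (81.1%), against 27.1% of all genes. The 3 lines share the control library, so M8 was also set against M32 and M83. Both comparisons reuse the M8 counts by which the chromosome was chosen, so they are no separate support. Over M32 the M8 median was -0.55, with 362 members below 0 (88.9%, against 48.8% of all genes). Over M83 it was -0.66, with 376 below 0 (92.4%, against 49.1%). Chromosome 12 as a whole took 2.81%, 2.04%, 2.75% and 3.08% of the counts of control, M8, M32 and M83, with an exact 95% binomial interval of 2.04% to 2.05% in M8 and 2.81% to 2.82% in control.

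No other nuclear chromosome with a median here was as low in M8. Over the 19 other chromosomes (18 autosomes and X) the medians of M8 over control ran from -0.08 (X) to 0.15 (chromosome 1), and the share of genes below control from 32.4% (chromosome 17) to 59.4% (X). The 15 mitochondrial genes were lower still in M8, with a median of -0.87, 13 of them lowest there, and stood at 0.41 in M32 and 0.23 in M83. Over the 19 other nuclear chromosomes the share of genes lowest in M8 ran from 8.05% (chromosome 16) to 31.3% (X). The spread of the members around their own median was similar to that elsewhere. Their interquartile range was 0.50, and that of the other chromosomes lay between 0.421 and 0.532. The closest counterpart in size was chromosome 16 in M83, whose 348 genes had a median of -0.58, an interquartile range of 0.409 and 88.8% below control. In M8 chromosome 16 had a median of -0.04, and chromosome 12 in M83 was at 0.10 as given. These differences between chromosomes were not tested, since each line is 1 library.

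**Figure D1:**
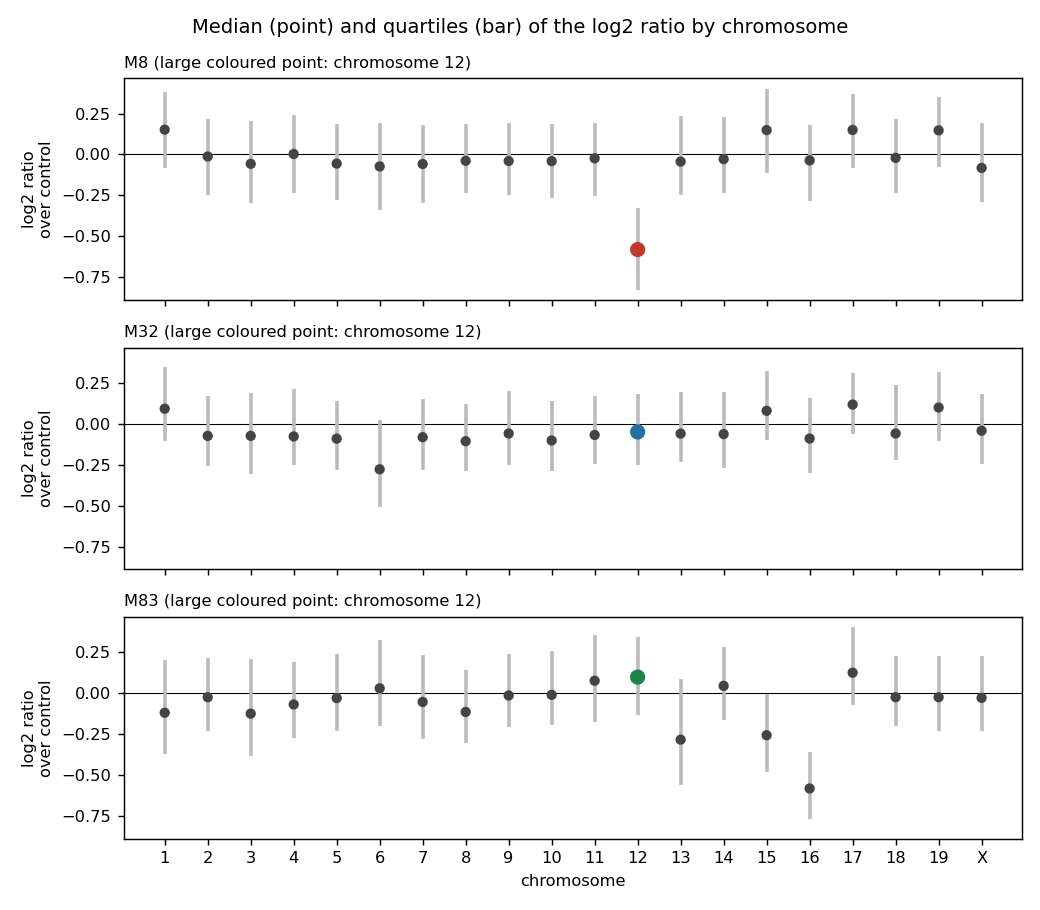
Median log2 ratio over control (point) with the quartiles (bar) for the genes of each autosome and X, 1 panel per line, with chromosome 12 in colour. In M8 chromosome 12 sits at -0.58 while the other chromosomes lie between -0.08 and 0.15.

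The lower values in M8 ran along the whole chromosome. In windows of 10 Mb counted from the chromosome start, all 12 medians were below 0, and among the 9 windows with 20 or more members they lay between -0.78 and -0.39. The lowest median, -0.78, belonged to the window from 50 to 60 Mb, where 37 of 38 members were below control and 37 were lowest in M8. Snx6 (a sorting nexin gene) and Sec23a (a coat protein gene of vesicle transport) stood at -1.07 and -0.89 in this window, and Heatr5a alone was above control, at 0.03. Here M83 differed from control in the opposite direction, with a window median of 0.32, so that M8 over M83 reached -1.12.

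Among the 10 Mb windows the smallest shift was in the last one. The window from 90 Mb, with 14 members, was close to it at -0.40. In 5 Mb windows with 20 or more members the smallest shift was from 105 to 110 Mb, at -0.36. From 110 Mb on, 42 of 53 members were below control, 36 were lowest in M8 and the median was -0.39. Hsp90aa1, the most counted member there, had 48559, 38131, 41582 and 47111 counts in control, M8, M32 and M83, lowest in M8. A running median of 25 members, taken at 383 positions, stayed below 0 throughout in M8, between -0.85 (centred on Srp54c) and -0.22 (centred on Jag2). The single split of the members that best described M8 lay between Mark3 and Trmt61a, near 111.7 Mb, with a median of -0.60 over 371 members before it and -0.30 over 36 after it. That split lowered the summed absolute deviation by only 2.20%, against 1.94% for the best split in M32 and 1.27% in M83. In the latter lines the running median crossed 0, from -0.31 to 0.26 in M32 and from -0.12 to 0.35 in M83. Thin windows, with under 20 members, were those from 10, 40 and 90 Mb, with medians of -0.46, -0.55 and -0.40 in M8.

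**Figure D2:**
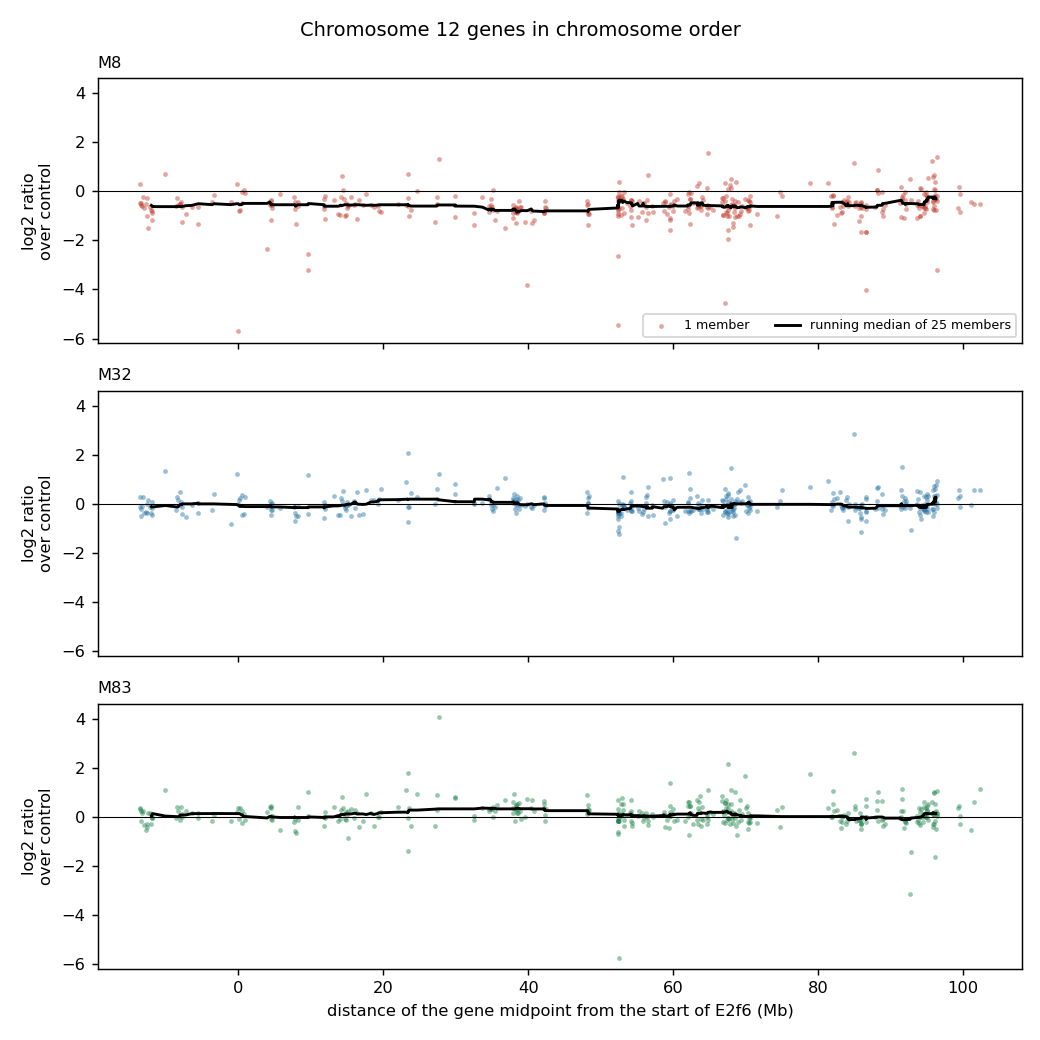
Log2 ratio over control of each of the 407 members against the distance of its midpoint from the start of E2f6, with a running median of 25 members (black), 1 panel per line. The black line stays between -0.85 and -0.22 in M8 and crosses 0 in M32 and M83.

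The size of the shift did not follow how strongly a gene was expressed, though its spread did. By quartile of mean CPM the median in M8 was -0.51, -0.65, -0.57 and -0.58 from the lowest to the highest quartile. The interquartile range narrowed in the same order from 0.854 to 0.632, 0.454 and 0.290. Among the 102 members of the top quartile 95 were below control and 89 were lowest in M8, with quartiles at -0.68 and -0.39. Exon length made little difference, with medians between -0.54 and -0.61 over its quartiles. Members on the plus and the minus strand had medians of -0.58 each. The 380 protein-coding members stood at -0.58 and the other 27 at -0.34 with a wide interquartile range of 1.08. Of the 158 members whose exons overlap another gene, for which reads cannot be told apart without a stated strand setting, the median was -0.59, against -0.57 for the rest.

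**Figure D3:**
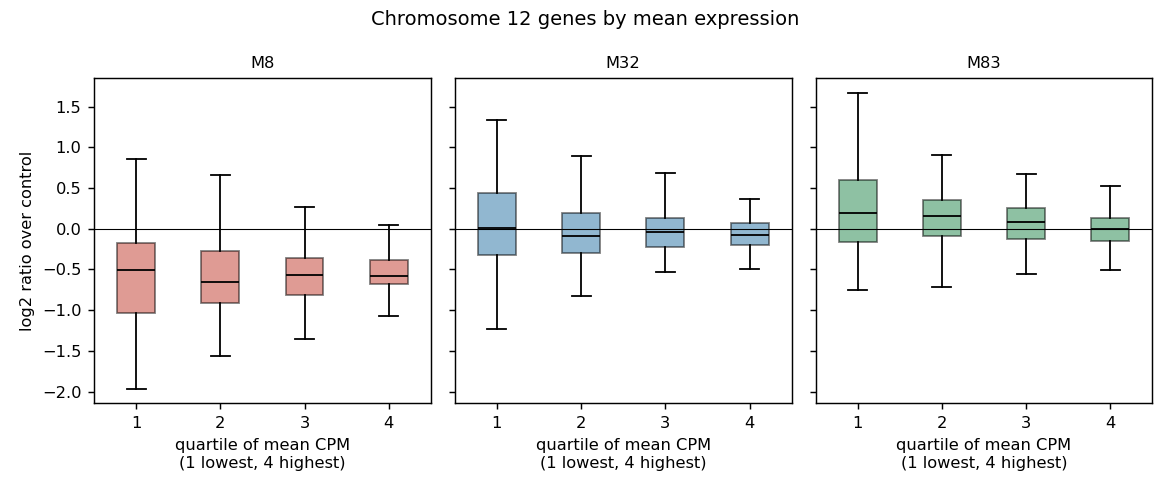
Log2 ratio over control by quartile of mean CPM, 1 panel per line (box: quartiles, line: median, whiskers: up to 1.5 times the box, points beyond not drawn). In M8 the median stays between -0.65 and -0.51 while the box narrows towards the most expressed members.

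Lists of chromosome 12 genes were drawn up by function, with earlier results of these data known, and are described by counts and medians. Of all 407 members 81.1% were lowest in M8, and of all genes 27.1%. A list with a share near 81.1% does not stand out from the chromosome. Genes of protein and RNA handling gave the most even picture, though expression, with which the spread narrowed, was not separated from function. All 23 were lowest in M8, between -0.83 and -0.34 over control, with a median of -0.58 in M8, -0.18 in M32 and -0.03 in M83. Eif5, a translation initiation factor gene, had 17238, 13140, 16295 and 19973 counts in control, M8, M32 and M83, lowest in M8. Dync1h1, the dynein heavy chain gene, had 18155, 15842, 22448 and 19177 counts in the same order. Rpl36al and Rps29, which encode ribosomal proteins, stood at -0.80 and -0.38 in M8. Psmc1 and Psma6, of the proteasome, were at -0.83 and -0.81, and Dicer1, the microRNA-processing nuclease gene, was at -0.64. Hsp90aa1, at -0.54, shares 51.5% of its 31-base words with other genes, and Rps29 21.3%, so their counts are less certain.

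Members of the cell cycle and genome list were lowest in M8 in 19 of 20 cases, against 81.1% of all members. The list's medians were -0.60 in M8, -0.20 in M32 and -0.13 in M83. Rrm2, a subunit gene of ribonucleotide reductase, which makes DNA precursors, was at -1.33 in M8, well under the chromosome's median, and at -0.49 and -0.65 in M32 and M83. Ncapg2, a condensin subunit gene, had 3189, 2021, 3154 and 3011 counts in the same order of libraries. It was lowest in M8, at -0.85, against -0.14 and -0.30 in M32 and M83. Pole2, a DNA polymerase epsilon subunit gene, had a ratio of 0.490 and Cenpo, a centromere protein gene, 0.497. E2f6 belongs to this list and is described on its own. Fancm and Mlh3, of crosslink and mismatch repair, were at -0.93 and -0.83. Pum2, an RNA-binding repressor gene, Max, the partner of Myc, and Mnat1, of the CDK-activating kinase, were closer to control at -0.50, -0.39 and -0.35. The exception was Odc1, the ornithine decarboxylase gene of polyamine synthesis, with 32271, 38743, 26376 and 40818 counts in control, M8, M32 and M83. It stood at 0.07 in M8, between Nol10 at -0.49 and Hpcal1 at -0.07, and shared 31.3% of its words.

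Signalling genes had medians of -0.59, 0.0034 and 0.05 in M8, M32 and M83. Lowest in M8 were 16 of 20, near the 81.1% of all members. Akt1, a survival kinase gene, had 16195, 11120, 15189 and 15245 counts in control, M8, M32 and M83. It was lowest in M8, at -0.73. Sos2, a Ras exchange factor gene, and Tgfb3, a growth factor gene, were lower still, at -0.97 and -0.92. Ltbp2, a gene of the latent TGF-beta binding family, was above control in every line, at 0.49, 1.46 and 1.11 in M8, M32 and M83. Jag2, a Notch ligand gene, had only 49, 73, 83 and 17 counts. Among transcription factor genes 20 of 21 were lowest in M8, with a median of -0.63 there, -0.0019 in M32 and 0.11 in M83. Hif1a had 3712, 2776, 3889 and 4643 counts in the 4 libraries, a ratio of 0.655 in M8 (exact 95% interval 0.623 to 0.688). Foxa1, a developmental factor gene, was at -1.16, Yy1 at -0.37 and Twist1 at -0.57. The immediate early gene Fos alone was not lowest in M8, with 587, 871, 240 and 520 counts, lowest in M32.

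For metabolic genes the M8 median was -0.44, and 12 of 15 were lowest there, near the 81.1% of all members. Mthfd1, of one-carbon metabolism, Dlst, of the oxoglutarate dehydrogenase complex, and Nampt, of NAD synthesis, stood at -0.64, -0.60 and -0.56. Lpin1 (a phosphatidate phosphatase gene), Galc (a lysosomal galactosidase gene) and Cox16 (an assembly factor gene of cytochrome oxidase) were above control in M8, at 0.29, 0.36 and 0.12, and 55.2% of the words of Cox16 are shared. The 5 matrix and adhesion members differed among themselves, with a median of 0.05 in M8 over control, -0.65 over M32 and -1.44 over M83. Actn1, an actinin gene, was at -0.62 and the integrin chain gene Itgb8 at -0.53, while the laminin chain gene Lamb1 was at 0.05 and Fbln5 and Nrcam were above control in all lines. Of the imprinted domain only Wdr25, Dlk1 and Meg3 were members. Dlk1 had 30, 50, 29 and 2 counts in the 4 libraries and Meg3 36, 32, 18 and 14, both lowest in M83. None of 19 Serpina rows and none of 10 immunoglobulin heavy chain rows reached 100 counts, the latter holding at most 4 counts over the 4 libraries. The 289 members in no list had a median of -0.57 in M8.

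**Figure D4:**
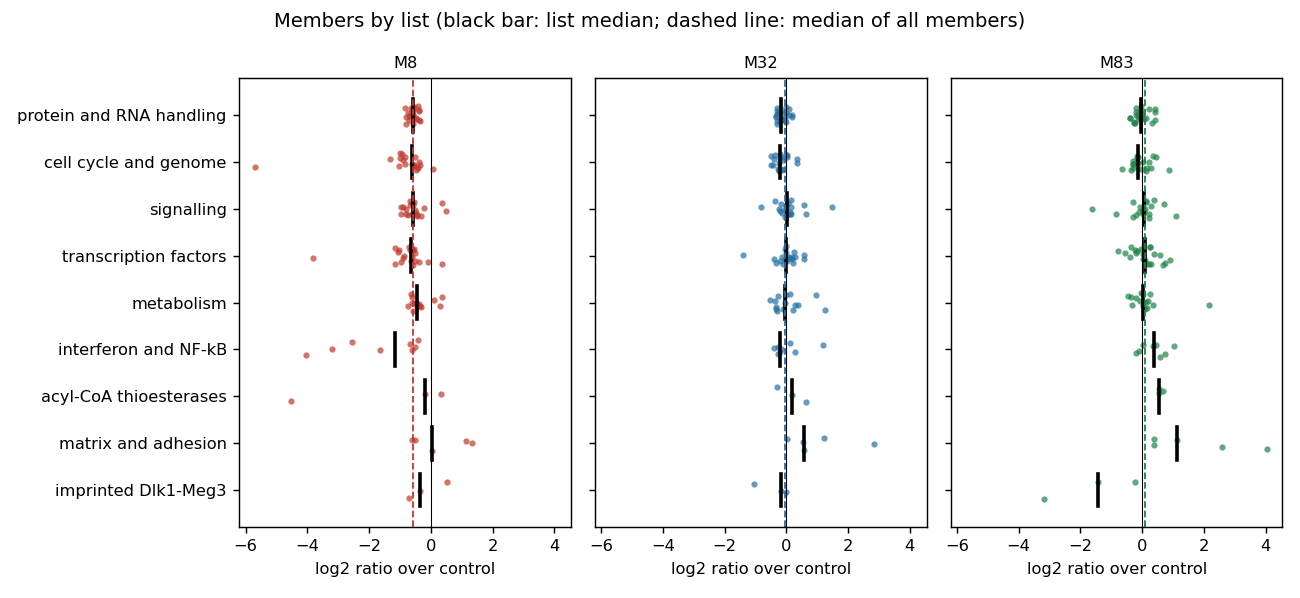
Log2 ratio over control of the members in each functional list (points), with the list median (black bar) and the median of all 407 members (dashed), 1 panel per line. In M8 the list of protein and RNA handling clusters at -0.58, while the interferon and NF-kB list reaches -4.03.

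Of the interferon and NF-kB list, Rsad2, Cmpk2, Ifi27 and Ifi27l2a were furthest below control in M8. All 8 members of the list were lowest in M8, against 81.1% of all chromosome 12 members. Over control, 6 of the 8 lay under the chromosome's median in M8. The list's medians were -1.16 in M8, -0.20 in M32 and 0.39 in M83. Ifi27l2a had 114, 6, 151 and 222 counts in control, M8, M32 and M83. Cmpk2, a nucleotide kinase gene next to Rsad2, had 79, 8, 196 and 188, and Rsad2 81, 14, 66 and 97. For each of them the M8 count lay far under those of the other 3 libraries. Ifi27 had 1257, 458, 1135 and 1976 counts, a ratio of 0.319 in M8 (exact 95% interval 0.286 to 0.355). The other members of the list were nearer the chromosome's median, and Wars and Nfkbia were above it. Irf2bpl was at -0.69, Traf3, a signalling adaptor gene, at -0.61, Wars, a tRNA synthetase gene, at -0.50 and Nfkbia, the NF-kB inhibitor gene, at -0.40. Without this list the members' median in M8 was -0.57. Rsad2 and Cmpk2 are separated by 12751 bases, and the members next to the pair, Id2 and Rps7, were at -0.61 and -0.62.

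E2f6 was the member furthest below control in M8. The gene, a transcriptional repressor of the E2F family (ENSMUSG00000057469), is protein-coding and spans chr12:16810963-16839742 on the plus strand. Its counts were 369, 6, 403 and 549 in control, M8, M32 and M83, so that only the M8 library was low. The M8 ratio was 0.0142 (exact 95% interval 0.00519 to 0.0313), and 0.0697% of its words were shared. The 10 members beside it, 5 to each side, had a median of -0.43 in M8, from -0.80 to 0.29, and 8 of them were below control. Its nearest members were Lpin1 on one side, at 0.29, and Rock2, a kinase gene, on the other. Rock2 had 6356, 4163, 7698 and 6950 counts in the 4 libraries, a log2 ratio of -0.80 in M8. Pdia6, a disulfide isomerase gene of the endoplasmic reticulum 456 kb from the start of E2f6, was at -0.03, with an exact 95% interval of its ratio (0.956 to 1.01) that includes 1.

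**Figure D5:**
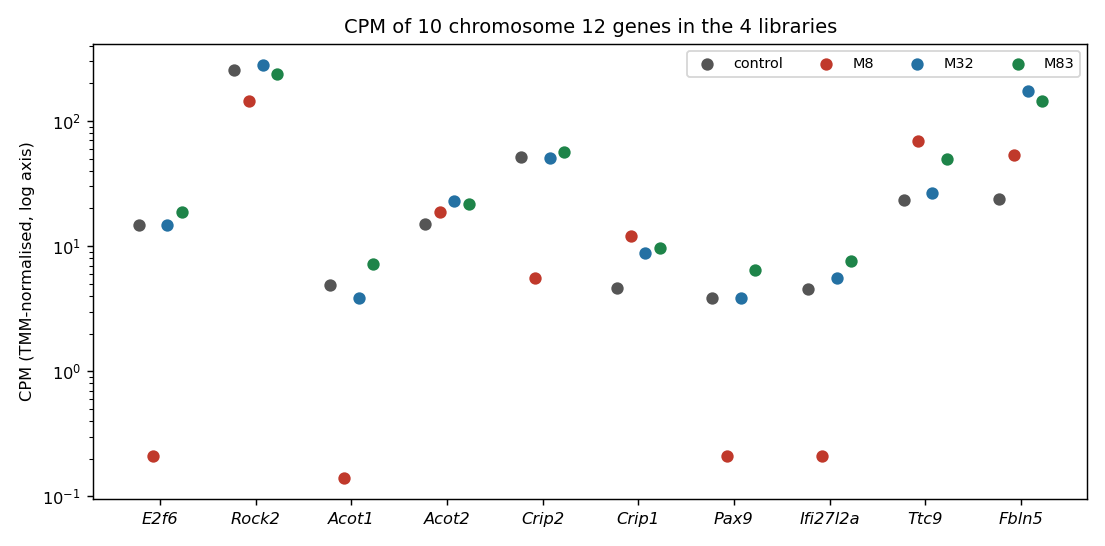
TMM-normalised CPM (log axis) of 10 members in the 4 libraries, 1 point per library. E2f6, Acot1, Crip2, Pax9 and Ifi27l2a are far lower in M8 than in the other libraries, Rock2 is lower by less, and Crip1, Ttc9 and Fbln5 are higher in M8 than in control.

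In all, 59 members (14.5%) were at -1 or lower in M8, against 2.68% of all genes, and 5 (1.23%) at 1 or higher, against 3.91%. In M32 there were 5 at -1 or lower (against 1.54%) and 13 at 1 or higher (against 4.90%), and in M83 5 (against 1.79%) and 17 (against 5.15%). A stricter rule asked for a log2 ratio of at least 2 in size, 50 counts in the higher library and an interval that leaves out 2-fold. By it 10 members were lower in M8 (2.46%, against 0.525% of all genes) and 0 were higher (against 0.657%). The lower members were E2f6, Acot1, Ifi27l2a, Pax9, Cmpk2, Crip2, Rsad2, 1700030C10Rik, Rn7s1 and Gm49384. With the chromosome's own median taken off, 14 members (3.44%) remained at -1 or lower, and 15 (3.69%) at 1 or higher. The genes off chromosome 12, treated alike, had 2.22% and 4.08%.

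Acot1, a cytosolic acyl-CoA thioesterase gene, had 122, 4, 106 and 209 counts in control, M8, M32 and M83. Its M8 ratio was 0.0287 (exact 95% interval 0.0077 to 0.0754). Its mitochondrial counterpart Acot2, 15616 bases away, had 374, 533, 626 and 633 counts, and Acot6, on the other side, was at -0.19. Only 3 of 6 thioesterase genes of the list were members. Acot1 and Acot2 share 22.8% and 37.8% of their words with other genes, so the division of reads between them is uncertain. Crip2, which encodes a small LIM-domain protein, had 1286, 159, 1385 and 1644 counts in the 4 libraries. The next member, Crip1, of the same family and 809 bases away, had 115, 345, 242 and 280. The pair thus differed by 4.57 on the log2 scale in M8, with under 0.5% of the words of each shared, and the other lines had Crip2 at -0.02 and 0.14. Pax9, a developmental factor gene, had 97, 6, 106 and 188 counts. Its nearest members Mbip and Prps1l3 were at -1.26 and -0.79, and Mipol1 and Foxa1 next to them at -1.31 and -1.16, all under the chromosome's median. Entpd5, a nucleotide hydrolase gene of the endoplasmic reticulum, had 152, 43, 225 and 224 counts and stood at -1.96. Rn7s1, a copy of the signal recognition particle RNA, had 78 counts in control and 0 in M8, at least 29.7-fold lower (floor of 3 counts in the library). All of its words occur elsewhere, so it is uncertain, as are Gm49384 (96.9% shared) and 1700030C10Rik (33.7%).

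Some members went against the chromosome in M8. For 26 (6.39%) the interval lay wholly above 1, against 32.6% of all genes, and only some are named here. Nrcam, described with M83, was at 1.32 in M8. Ttc9, which encodes a tetratricopeptide repeat protein, had 591, 1988, 723 and 1454 counts in control, M8, M32 and M83. Its M8 ratio was 2.95 (exact 95% interval 2.69 to 3.23). Med6 and Pcnx on either side of it were at -0.68 and -0.64. Tmem179, a transmembrane protein gene, had 64, 174, 61 and 113 counts. Fbln5, which encodes the elastic fibre protein fibulin, was higher in all lines, with 599, 1519, 4718 and 4190 counts, and was least raised in M8. The noncoding RNA Gm48619 and Clba1 were at 0.71 and 0.68.

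In M32 and M83 few members stood out. By the stricter rule 0 members were lower in M32 (against 0.254% of all genes) and 2 higher (0.491%, against 0.981%), Fbln5 and the antisense RNA Gm7008. In M83 1 was lower (0.246%, against 0.271%), Rn7s2, a further copy of the signal recognition particle RNA, and 3 were higher (0.737%, against 0.920%), Fbln5, Nrcam and Aldh6a1. Nrcam, a neural adhesion molecule gene, had 14, 43, 38 and 304 counts in control, M8, M32 and M83. Aldh6a1, of valine breakdown, had 28, 20, 40 and 152 counts. Both were high in M83, and Aldh6a1 in M8 lay at -0.63. Without the M83 counts neither Nrcam nor Aldh6a1 would reach the limit of 100 counts. Their place among the members thus rests on the library where they are high.

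Near the limit of 100 counts, values scatter widely. The nearest members inside it were Meg3 (100 counts in sum, -0.34 in M8), Gm33869 (103, -0.17), Akap5 (105, -1.18), Dlk1 (111, 0.52) and Gm4419 (113, -0.70). The nearest genes outside were Gm39473 and Gm35558_3 (99 counts each, -3.58 and 0.72), D130020L05Rik (97, -1.09), Gm28370 (88, 0.89) and Gm15283 (86, -0.40).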

How the data were processed

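Poly(A) RNA libraries of control, M8, M32 and M83 (1 each) were sequenced on an Illumina NextSeq, per the series' design text. The authors deposited raw counts per gene, whole numbers with no normalisation. Genome build GRCm38 is named in the submitters' processing notes. Aligner, counter, annotation and strand setting were not stated in those sources. Of 41457 rows, 41434 were found in GENCODE vM21, which gave positions, gene types and exons. TMM factors (edgeR 4.0.16, R 4.3.3) came from the whole table. Log2 ratios used a prior count of 2. Ratios have exact (Clopper-Pearson) 95% binomial intervals (scipy 1.17.1), which cover counting error only. The floor behind a 0 was 3 counts (0.12 CPM in control, 0.105 in M8). With 1 library per group there was no test between groups. Shared words are 31-base words found in transcripts of another gene. The functions were tested on simulated counts. Members and lists were chosen with earlier results of these data known. Genes named are the 6 lowest and 6 highest M8 ratios among members with 100 or more counts in the higher of M8 and control, the most counted in each 10 Mb window, the 5 on either side of E2f6, list members and those past the 4-fold rule. Which list members beyond the 6 most counted were named, and Snx6, Sec23a, Heatr5a, Hpcal1, Mbip, Prps1l3, Mipol1, Med6 and Pcnx, was decided after their values were seen. A few members that the rule names are not reported here. Alternatives covered scaling (DESeq2 1.42.0 size factors among them), prior count, count minimum, gene subsets, window size and reference library. No paired analysis was possible because each group holds 1 library.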

Additional observations from a re-analysis of the deposited data

Results flagged for a closer look

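The members' median lay on opposite sides of control in M8 and M83, at -0.58 and 0.10. With 1 library per line and a shared control, this difference was not tested. The M83 median was 0.20 with library size alone.

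Cmpk2, the nucleotide kinase gene beside Rsad2, was lower than control in M8 (-3.19) and higher in M32 (1.17) and in M83 (1.02). Its counts were 79, 8, 196 and 188 in control, M8, M32 and M83, and these differences were not tested either.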

How the results depend on the processing

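The members' median in M8 kept its direction under all 15 alternatives run, between -0.66 with M83 as the reference and -0.43 with every gene of 1 or more counts (749 genes). It was -0.55 with TMM factors over genes kept by edgeR's filter on low counts, a setting chosen after seeing the data. The small medians of the other lines moved with scaling. That of M32 was -0.0081 with library size alone, -0.0165 with DESeq2 size factors, -0.0187 with TMM factors from genes off chromosome 12, -0.0150 with the filtered TMM factors and 0 with every gene of 1 or more counts, and that of M83 was 0.20 with library size alone. Scaling moved the median of all genes by at most 0.0966. Without members that overlap another gene, 216 of 249 were below control in M8 and 195 lowest in M8. Of the 158 members that overlap, 150 were below control and 135 lowest in M8, both larger shares. Leaving out control, M32 or M83 in turn gave between 339 and 349 members lowest in M8. With a library left out this count can only stay or rise, so it is no check on the result. In 5 Mb windows, many of them thin, the medians ran from -0.98 to -0.18, and from -0.80 to -0.36 in the 9 windows with 20 or more members. The count of members lower in M8 by the 4-fold rule was 10 or 11, and with library size alone 51 members were at -1 or lower in M8. Of 695 recomputed values of the 139 named members 685 stayed within their counting interval and 10 (among them values of Dync1h1, Eif5, Hsp90aa1, Odc1 and Rps7) left it. The sign changed in 2, both of Pdia6, which went from -0.026 to 0.0037 with library size alone and 0.0073 with the filtered TMM factors, each within its counting interval. Counts limit the lowest quartile of members most.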

Other observations

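Smaller shifts in M8 stood on other chromosomes. Chromosomes 1, 15, 17 and 19 had medians of 0.15 each in M8 over control, on the same scale as the -0.58 of chromosome 12. In M32 they were at 0.09, 0.08, 0.12 and 0.10, and in M83 at -0.12, -0.26, 0.12 and -0.02. All of these share the control library. Chromosome 6 in M32 was at -0.28 and chromosome 13 in M83 at -0.28. No test was run on them.

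Rian, a noncoding RNA gene of the imprinted domain and too low to be a member, had 3 counts in control, 25 in M8 and 1 each in M32 and M83.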
